A study of Arabidopsis thaliana with 8 samples.

Results

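NPF3.1 (AT1G68570) is 1 gene, read on the array by 1 probe set, 262281_at, out of the 22746 probe sets that are not array controls. It was taken as the probe set for which the platform's probe-to-gene table lists AT1G68570 and no other gene, and 1 of 1 such probe sets was found. The gene was picked with its own difference between GA4-sprayed and water-sprayed shoots already known from these arrays. That difference is therefore described here and not tested.

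NPF3.1 belongs to the NPF family (also called NRT1/PTR), proteins that move nitrate, peptides, glucosinolates or hormones across membranes. NPF3.1 is known as a transporter of gibberellins that can also carry nitrate, and in Arabidopsis roots its product has been tied to the build-up of gibberellin in the endodermis. Gibberellin is sensed by the GID1 receptors, which then bring about the breakdown of the DELLA repressors, and transcripts of several genes of this pathway are known to fall when the hormone is supplied.

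The study looked for genes that respond early to gibberellin. All 8 arrays (Affymetrix ATH1, biotin-labelled RNA) come from shoots of Arabidopsis seedlings aged 8 days that carry ga1-3, a mutation in the gibberellin biosynthesis gene GA1, in the Ler background. In the GA4 group (4 arrays) whole seedlings were misted with 2 µM GA4, a bioactive gibberellin, and in the water group (4 arrays) with water. Shoots were cut 1 h later in both. Because GA4 and water shoots alike lack most of their own gibberellin, and no wild type was analysed here, the data show the response of gibberellin-deficient shoots to added hormone. The labels number 4 biological replicates in each group without saying what a shared number marks. The GA1 locus had no probe set with a single listed gene, so the mutation was not checked.

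In GA4 and water alike, replicates 1 and 2 stood apart from replicates 3 and 4 in some measures of array quality and not in others. The array carries 6 pairs of control probe sets, 2 each for actin, GAPDH and ubiquitin, whose 3′ to 5′ signal ratio rises as RNA is degraded or copied incompletely. In 3 of the 6 pairs every array of replicates 1 and 2 had a higher ratio than every array of replicates 3 and 4, at 2.13 to 5.43 and 0.958 to 1.14 for a GAPDH pair, 2.72 to 6.81 and 1.50 to 1.76 for an actin pair, and 1.66 to 4.17 and 1.21 to 1.39 for a ubiquitin pair. In the second pair of each transcript the ranges overlapped, at 0.929 to 1.34 and 0.829 to 0.982 for GAPDH, 3.67 to 13.6 and 3.03 to 5.63 for actin, and up to 2.80 and 1.32 to 1.59 for ubiquitin, where water replicate 2 lay just under the ratios of replicates 3 and 4. The division of the replicates was known before these ratios were compared. The median signal was 203 to 223 units on replicates 1 and 2 and 163 to 173 units on replicates 3 and 4. None of the 7 shoot markers and none of the 8 root endodermis markers that had been listed had a probe set with a single gene, so the tissue label was not checked against them. Of 6 root markers, the root hair expansins EXPA7 and EXPA18 had one. EXPA7 averaged 6.59 ± 0.31 log2 signal in GA4 shoots and 6.27 ± 0.49 in water shoots (SD, n = 4 each), and EXPA18 averaged 6.08 ± 1.05 in GA4 shoots and 5.41 ± 1.25 in water shoots, all below the level of 6.78 log2 (110 units) that a probe set had to reach on average to be tested.

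NPF3.1 transcript was lower in GA4-sprayed than in water-sprayed shoots on the arrays of each replicate number. Its MAS5 signal was 963, 1195, 540 and 664 units on GA4 replicates 1 to 4, against 1583, 1926, 1386 and 1270 units on water replicates 1 to 4. The highest GA4 array was replicate 2 and the lowest water array was replicate 4, and the groups did not overlap. They came close, however, since the gap between those arrays was 0.09 on the log2 scale. The lowest of the 8 values was 4.91 times the filter level, so none of them lay near the weak signals that were left out.

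On the log2 scale NPF3.1 averaged 9.65 ± 0.52 in GA4 shoots and 10.57 ± 0.26 in water shoots (SD, n = 4 each). The difference of −0.93 corresponds to a 1.90-fold lower signal, or 52.7% of the water level. Among the 13648 tested probe sets it ranked 79 when sorted from the most negative difference. All GA4 arrays lay below all water arrays for 1.39% of the tested probe sets, and the 4 same-numbered differences were all negative for 10%. Both figures are the background for this gene, which was picked for this contrast, and they say nothing further about it. In whole shoots, fewer cells that express the gene and less RNA per cell cannot be told apart.

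**Figure D1:**
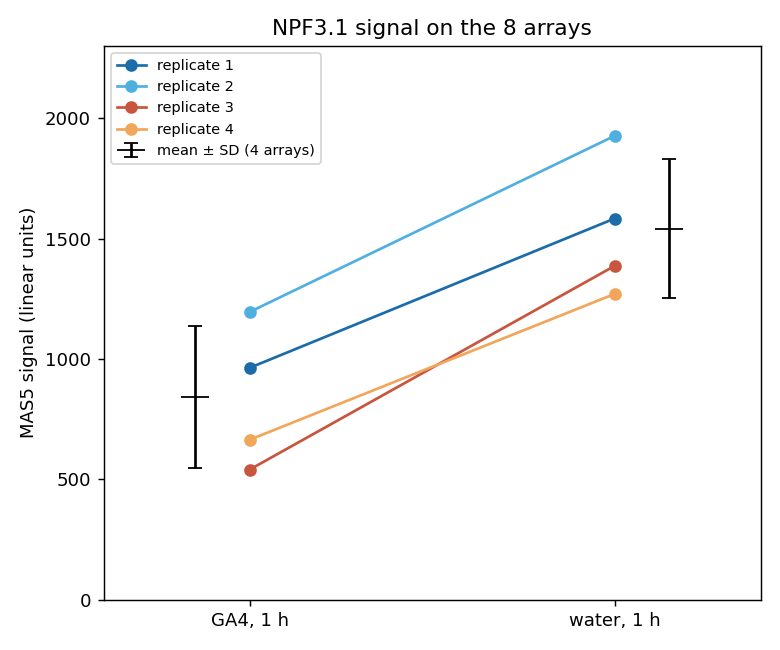
MAS5 signal of NPF3.1 (vertical axis, linear units, from 0) on the 4 GA4 arrays (left) and the 4 water arrays (right), with a line joining arrays of the same replicate number and the mean ± SD beside each group. The GA4 values run from 540 to 1195 and the water values from 1270 to 1926, and each of the 4 lines climbs toward water.

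Taken by replicate number, GA4 minus water was −0.72 for replicate 1, −0.69 for replicate 2, −1.36 for replicate 3 and −0.93 for replicate 4 (log2). The GA4 signal was thus 60.8%, 62.0%, 39.0% and 52.3% of the water signal of the same number. The mean of these differences was −0.93 ± 0.31 (SD, n = 4 pairs). Replicate 3 had the largest drop and the lowest of all 8 signals. The SD of 0.31 lay near the median SD of same-numbered differences over all tested probe sets, which was 0.28.

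The level of NPF3.1 also followed the division of the arrays. Replicates 1 and 2 exceeded replicates 3 and 4 by 0.84 among the GA4 arrays and by 0.40 among the water arrays (difference of mean log2 signals, n = 2 against 2 arrays). Within replicates 1 and 2 the GA4 difference was −0.70 (1.63-fold lower), and within replicates 3 and 4 it was −1.15 (2.21-fold lower). The size of the drop differed by 0.44 between the sets. In the GAPDH pair that divided the sets, the 3′ to 5′ ratio was 3.50, 5.43, 0.980 and 1.10 on GA4 replicates 1 to 4, against 2.25, 2.13, 0.958 and 1.14 on water replicates 1 to 4. The GA4 array thus had the higher ratio for 3 of 4 numbers, as it did in 4 of the 6 control pairs, while in the others it was the higher one for 2 (ubiquitin) and for 1 (actin) of 4 numbers. The part of RNA quality in the size of the drop was not tested.

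Of the other NPF genes that could be tested, 1 had a mean difference as low as that of NPF3.1 and none passed the test. A list of the 52 other members was examined, of which 33 had a probe set with a single gene and 20 were bright enough to be tested. In the limma fit without a block on replicate number (the unblocked fit), 0 of the 20 passed an adjusted p of 0.05 (Benjamini-Hochberg over all 13648), against 0.0147% of all tested probe sets. In the fit with replicate number as a block (the blocked fit) it was also 0 of 20, against 0.293%. At an unadjusted p under 0.05 there was 1 lower and 1 higher member in the unblocked fit (1.77% and 0.879% of all tested) and 1 lower and 2 higher in the blocked fit (6.63% and 5.17%). The median difference of the 20 was 0.06, against 0.01 for all tested probe sets. Of the 20, 15 were above 0 and 5 below, or 75%, against 51.5% of all tested. After quantile normalization the split was 11 above and 9 below, or 55% against 50.4%, and after subtraction of array medians it was 14 above and 6 below, or 70% against 45.4%.

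The member with the lowest difference was NPF2.10 (GTR1), a glucosinolate transporter that has also been reported to carry gibberellin and jasmonate. Its log2 signal was 9.29, 9.14, 10.42 and 10.41 on GA4 replicates 1 to 4, against 11.32, 9.97, 10.99 and 10.87 on water replicates 1 to 4. The GA4 array was the lower one for each number, but the groups overlapped because water replicate 2 was low. The same-numbered differences were −2.02, −0.84, −0.57 and −0.45, and their mean was −0.97 (blocked SE 0.22, n = 4 pairs). It did not pass in limma, with an adjusted p of 1.00 unblocked and 0.111 blocked. Replicate 1 carried much of the size, and without its pair of arrays the difference was −0.62. The difference was −1.43 on replicates 1 and 2 and −0.51 on replicates 3 and 4, the reverse of the order seen for NPF3.1.

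NPF2.11 (GTR2), the other glucosinolate transporter of this subfamily, was measured beside it. It averaged 8.69 ± 0.17 in GA4 shoots and 8.61 ± 0.43 in water shoots (log2, SD, n = 4 each), a difference of 0.08 (blocked SE 0.14, adjusted p = 0.859 by limma). It was chosen for comparison after its values were seen, as were the nitrate transporters NPF6.2 and NPF6.4, the hormone-transporter subfamily members NPF4.3 and NPF4.4, and AT3G45680 below.

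At the other end of the family stood AT5G62730. Its log2 signal was 7.10, 7.53, 7.20 and 7.40 on GA4 replicates 1 to 4, against 6.40, 7.01, 6.46 and 6.66 on water replicates 1 to 4. All GA4 arrays lay above all water arrays, which held for 1 of the 20 members and for 0.894% of all tested probe sets. The difference was 0.68 (1.60-fold, blocked SE 0.21), with same-numbered differences of 0.70, 0.52, 0.74 and 0.74. It did not pass in limma, with an adjusted p of 1.00 unblocked and 0.266 blocked. The water mean of 6.63 was under the filter level of 6.78.

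NPF6.2 (NRT1.4) and NPF6.4 (NRT1.3) are given as examples of members with known nitrate transport, and not as all of them. NPF6.2 was at 0.29 (blocked SE 0.12) and higher in GA4 for 4 of 4 numbers (as were 9.64% of all tested probe sets). NPF6.4 was at −0.08 (SE 0.11). Neither passed, with adjusted p of 0.410 and 0.782 in the blocked limma fit. NPF4.4 and NPF4.3 carry the name of a subfamily that holds known gibberellin and abscisic acid transporters. They were at 0.47 (blocked SE 0.22) and 0.27 (SE 0.14), with adjusted p of 0.430 and 0.479 by limma. Members given by locus, AT5G62730 among them, were not sorted into subfamilies here, so these need not be all its tested genes. The NPF4.4 mean was 7.21 in GA4 shoots but 6.74 in water shoots, under the filter level of 6.78. NPF4.1, which carries gibberellin in heterologous cells, lay below the filter with means of 6.62 ± 0.27 in GA4 shoots and 6.40 ± 0.25 in water shoots (SD, n = 4 each). AT3G45680 went opposite ways in the sets, with same-numbered differences of 1.00, 0.59, −0.80 and −0.68. The nitrate transporters NPF6.3 and NPF4.6 had no probe set with a single gene and were not analysed here. The remaining tested members lay between −0.15 (AT1G22570) and 0.25 (AT1G72140).

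**Figure D2:**
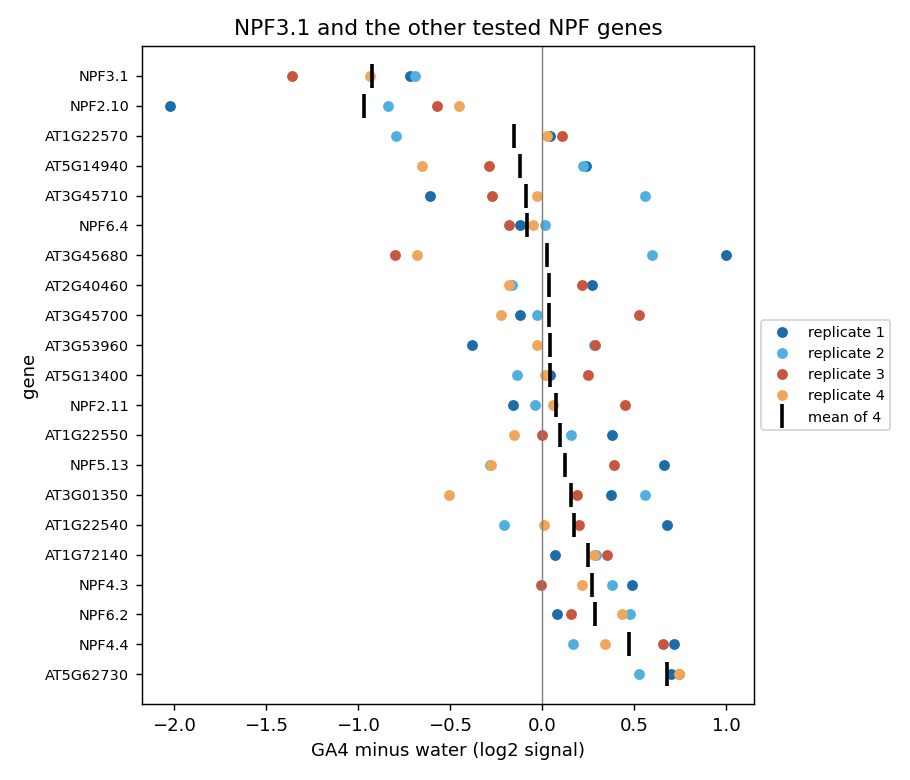
GA4 minus water (horizontal axis, log2 signal) for NPF3.1 (top row) and the 20 other tested NPF genes, sorted from the lowest mean, with a point for each replicate number and a bar for the mean. NPF3.1 at −0.93 and NPF2.10 at −0.97 stand to the left of the others, whose means run from −0.15 to 0.68.

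The SWEET family moves sugars, and SWEET13 and SWEET14 are also known to carry gibberellin. Of its 17 genes 16 had a probe set with a single gene and 9 were tested. In limma 0 of 9 passed in the unblocked fit, against 0.0147% of all tested probe sets, and 0 of 9 in the blocked fit, against 0.293%. At an unadjusted p under 0.05 there were 0 in the unblocked fit, against 1.77% lower and 0.879% higher of all tested. In the blocked fit there was 1, SWEET4, where 5.17% of all tested probe sets were higher at that level. SWEET4 was at 0.59 (blocked SE 0.21, adjusted p = 0.322), with differences of 0.76, 0.69, 0.48 and 0.43 for replicates 1 to 4. The SWEET4 mean was 7.29 in GA4 shoots but 6.70 in water shoots, under the filter level of 6.78. Of the 9, 7 were above 0 and 2 below, with a median of 0.19. This is 77.8% above 0, against 51.5% of all tested probe sets, whose median was 0.01. On replicates 1 and 2 that median was 0.45 and on replicates 3 and 4 it was −0.03. The higher values thus lay on the arrays with the higher 3′ to 5′ ratios in 3 of the 6 control pairs, and the part of RNA quality in them was not tested.

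SWEET13 showed that division plainly. Its log2 signal was 8.33, 7.94, 6.24 and 6.53 on GA4 replicates 1 to 4, against 7.53, 7.22, 6.32 and 6.59 on water replicates 1 to 4. The GA4 array was higher for replicates 1 and 2 and slightly lower for replicates 3 and 4, where both treatments lay below the filter level. Its mean difference of 0.34 (blocked SE 0.24) did not pass (adjusted p = 0.592). SWEET14 lay below the filter, at 6.07 ± 0.55 in GA4 shoots and 5.33 ± 1.59 in water shoots (SD, n = 4 each). SWEET15, the lowest of the tested members, was at −0.14 (blocked SE 0.14, adjusted p = 0.731).

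Among genes of gibberellin signalling, 2 of the 3 receptors stood lower in GA4 shoots, as NPF3.1 did, and the third did not. Of 32 listed genes of gibberellin metabolism and signalling 6 had a probe set with a single gene and 5 were tested. All 6 are signalling genes, namely the receptors GID1A, GID1B and GID1C besides SLY1, SNE and SPY. No listed gene of gibberellin metabolism had such a probe set, so metabolism was not examined here. None of the 5 passed in the unblocked limma fit, as 0.0147% of all tested probe sets did. In that fit 3 were lower at an unadjusted p under 0.05 (1.77% of all tested). In the blocked fit 2 passed the adjusted threshold as lower, against 0.256% of all tested probe sets. The median difference of the 5 was −0.65, and 5 of 5 were below 0, as were 48.5% of all tested probe sets. On replicates 1 and 2 alone 4 of the 5 were below 0, and on replicates 3 and 4 alone 5 of 5. The sixth gene, the receptor GID1C, lay below the filter and was not tested. Earlier results of these arrays were known when this list was written, so its direction is no independent evidence.

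GID1A, a gibberellin receptor, was at 6.82, 7.06, 6.94 and 7.11 log2 on GA4 replicates 1 to 4, against 8.59, 8.74, 8.96 and 8.07 on water replicates 1 to 4. The groups did not overlap (as for 1.39% of all tested probe sets) and were apart by more than the spread within either one. GID1B, a second receptor, was at 6.77, 6.70, 7.10 and 7.31 on GA4 replicates. On water replicates GID1B was at 7.57, 7.64, 9.35 and 9.08, where replicates 3 and 4 were the high ones. Its groups did not overlap either. In the blocked limma fit GID1A was at −1.61 (SE 0.20, adjusted p = 0.00929) and GID1B at −1.44 (SE 0.24, adjusted p = 0.0419), while unblocked the adjusted p was 0.0856 and 1.00. Without replicate 1 or without replicate 2 neither passed in the blocked fit, and without replicate 3 or replicate 4 GID1A passed and GID1B did not. GID1B and NPF3.1 both had the larger mean drop on replicates 3 and 4, while GID1A had it on replicates 1 and 2. For GID1B the means of the same-numbered differences were −0.87 (replicates 1 and 2) and −2.01 (replicates 3 and 4), and for GID1A they were −1.72 and −1.49 in that order. Singly the GID1A differences were −1.77, −1.68, −2.02 and −0.96 for replicates 1 to 4, so its order of sets rested on replicate 4. GID1C, the third receptor, averaged 6.59 ± 0.10 in GA4 shoots and 6.54 ± 0.38 in water shoots (log2, SD, n = 4 each). Its same-numbered differences were 0.47, 0.33, −0.03 and −0.58, with a mean of 0.05, and the groups overlapped. The lower members were not only receptors. SLY1, another tested gene of this list, was at −0.65 (blocked SE 0.18, adjusted p = 0.212 by limma). It was lower in GA4 for 4 of 4 numbers (10% of all tested), and its groups did not overlap (1.39%). SPY, a negative regulator of gibberellin signalling, was at −0.05 (blocked SE 0.12, adjusted p = 0.894). SNE, the remaining tested gene, was at −0.20 (blocked SE 0.31, adjusted p = 0.828 by limma). Its same-numbered differences were 0.93, −0.44, −1.16 and −0.12, and its groups overlapped.

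**Figure D3:**
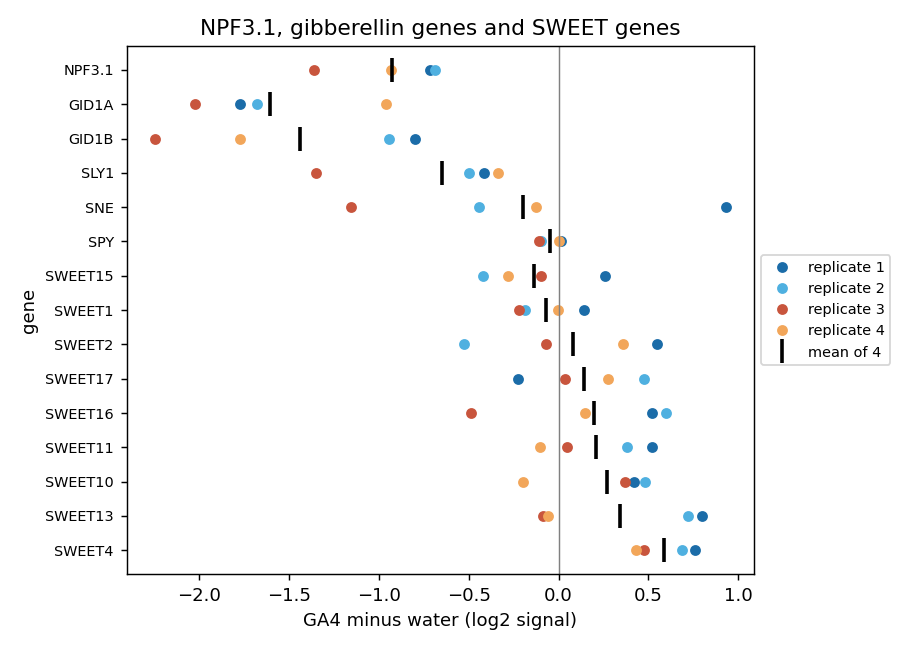
GA4 minus water (horizontal axis, log2 signal) for NPF3.1, the 5 tested gibberellin genes and the 9 tested SWEET genes, with a point for each replicate number and a bar for the mean. GID1A at −1.61 and GID1B at −1.44 lie to the left of NPF3.1 at −0.93, and the SWEET means run from −0.14 to 0.59.

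Of 28 genes listed for nitrate uptake, reduction and regulation, the nitrate transporter NRT2.5 alone had a probe set with a single gene. It lay below the filter, at 6.34 ± 0.54 log2 in GA4 shoots and 5.17 ± 1.18 in water shoots (SD, n = 4 each). Whether the nitrate pathway moved with NPF3.1 is therefore not answered here.

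The genes most like NPF3.1 over the 8 arrays were found by centring each gene's 8 log2 signals on their mean and taking the root mean square difference from NPF3.1. This distance was compared over the 13647 other tested probe sets, whose median was 0.63 log2 units. The nearest with a single listed gene was SCPL45, a serine carboxypeptidase-like protein, at 0.21. It was at 9.44, 9.18, 8.47 and 8.59 on GA4 replicates 1 to 4, against 10.09, 9.87, 9.85 and 9.51 on water replicates 1 to 4. Its same-numbered differences of −0.65, −0.69, −1.38 and −0.92 lay within 0.07 of those of NPF3.1 for each number. The next were AT1G53070 at 0.23 and AT1G17830 at 0.27, then AT1G80870, the cytochrome P450 gene CYP71B26, AT1G73110, AT5G47550 and AT2G27060, each at 0.28. Each of the 8 was lower in GA4 for 4 of 4 numbers, with mean differences of −0.91 (SCPL45) to −0.61 (AT1G53070). These genes were picked by likeness to a gene chosen for its drop, so their drops are a description. The 16 nearest probe sets held 8 more that have no single named gene and are not described.

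Which genes came nearest depended on single replicates. Of the 8, 0 were among the nearest 8 without replicate 3, 3 without replicate 4, and 4 without replicate 1 or without replicate 2. SCPL45 remained among the nearest 8 under 6 of 8 alternative settings, and AT1G73110 under 0 of 8.

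**Figure D4:**
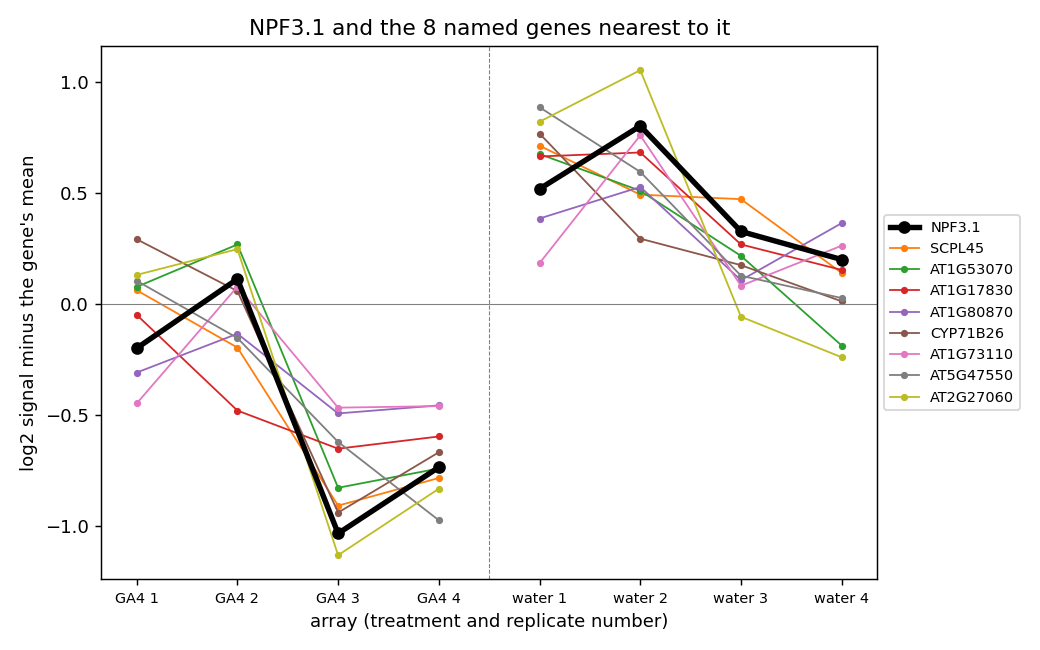
Log2 signal minus the gene's own mean (vertical axis) on the 4 GA4 arrays (left of the dashed line) and the 4 water arrays (right) for NPF3.1 (thick black) and the 8 nearest named genes. The lines only guide the eye, since replicates have no order, and NPF3.1 runs from −1.03 on GA4 replicate 3 to 0.80 on water replicate 2.

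The genes next to NPF3.1 on chromosome 1 were looked up after its values were seen. Of the 5 protein-coding genes on each side in the TAIR10.1 gene table, 3 had a probe set with a single gene and 2 were tested. AT1G68580, the next gene, averaged 9.85 ± 0.46 in GA4 shoots and 10.28 ± 0.40 in water shoots (log2, SD, n = 4 each). Its same-numbered differences were −0.59, −0.44, −0.47 and −0.22, with a mean of −0.43 (blocked SE 0.11). It did not pass in limma (adjusted p = 1.00 unblocked and 0.185 blocked). AT1G68585, one gene further, was at 0.26 (blocked SE 0.20, adjusted p = 0.635).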

How the data were processed

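The authors deposited linear intensities made with MAS5 (no version given in the submitters' processing notes), 1 for each probe set on each array. Every column had a 2%-trimmed mean of 500.04 to 500.05, so no scaling was added. No detection calls were used, and the number of arrays limits the precision. Of 22810 probe sets 64 were controls and were left out. Signals under 1 (707 of 182480) were set to 1, log2 was taken, and the 60% with the highest mean over all arrays (13648) were tested with limma 3.58.1 (R 4.3.3), moderated with a mean-variance trend, 2-sided, with Benjamini-Hochberg adjustment and a threshold of 0.05. Simulated data were used to check the code. Genes were named through the platform's table and the TAIR10.1 gene table, which gave 1 gene for 13513 probe sets (13436 with a locus), several for 503 and none for 8730. The array annotation carries no build, so no positions are given.

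Whether replicate numbers pair arrays was checked by correlating deviations from group means. Same-numbered arrays correlated at 0.616 to 0.685, over the minimum of 0.1, so the numbers, which come from the labels, were taken as pairs. Arrays of other numbers within the same set of replicates correlated at 0.367 to 0.599, and 8 of 8 arrays correlated best with the array of their own number.

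NPF3.1 and the lists of NPF, SWEET, nitrate and gibberellin genes were chosen with earlier results of these data known. Named are NPF3.1, list members past the threshold in either fit, the extremes of each list, those of NPF4.1, NPF4.6, NPF6.3, NPF2.10, SWEET13, SWEET14, NIA1, NIA2, NIR1, NRT2.1, GID1A, GID1B and GA1 that have a probe set, and the 8 nearest profiles. Other genes, GID1C, SLY1 and NRT2.5 among them, were added after their values were seen. Where the nomenclature of an NPF gene is not in the gene table, its locus is given.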

Additional observations from a re-analysis of the deposited data

Results flagged for a closer look

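For the genes named by rule, each group of 4 arrays was searched for an array far from the other 3 (Dixon's test). Of 38 groups examined 1 held such an array, and chance gives about 1 in 20. The log2 signal of AT1G73110, one of the genes nearest to NPF3.1, was 7.34 on GA4 replicate 2 and 6.80 to 6.82 on the other GA4 arrays.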

How the results depend on the processing

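The GA4 minus water difference of NPF3.1 was −1.15 to −0.70 under 18 alternatives, within the spread of its pairs. These were quantile normalization (−0.88), 16 added to every signal (−0.91), subtraction of array medians (−0.96), the median of the 4 pairs as the replicate block (−0.83), the sets of replicates, and leaving out arrays or pairs (−1.12 to −0.74). Since all GA4 arrays lay below all water arrays, leaving out arrays or pairs could not change the sign. The range describes the size of a drop for which the gene was picked. The counts of called NPF and SWEET genes were 0 under 25 of 25 alternatives each, where 0 to 53 of all tested probe sets passed. With so few passing anywhere, counts of 0 in lists this short say little about either family. The adjusted p of NPF2.10 by limma was 0.0634 to 1.00.

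Over all probe sets, 2 passed in the unblocked fit (2 lower, 0 higher), 40 with the replicate block (35 lower, 5 higher), 32 with a block on the sets of replicates (31 lower, 1 higher), 20 with the replicate block and quantile normalization (20 lower, 0 higher), 1 with no filter, 1 on replicates 1 and 2 and 9 on replicates 3 and 4, each of these lower in GA4. Leaving out single arrays or pairs gave 0 to 1 unblocked and 8 to 53 with the replicate block (14, 8, 53 and 43 without replicates 1 to 4, of which 14, 8, 52 and 39 were lower and 0, 0, 1 and 4 higher). Of the gibberellin genes, 0 passed unblocked, 2 with the replicate block, 2 with it and quantile normalization, 2 with the block on sets, 1 on replicates 3 and 4, and 0 to 1 with the replicate block and a pair left out. Of the 8 genes nearest to NPF3.1, 5 remained after quantile normalization, 5 by the 4 same-numbered differences (replicate block), 1 by correlation after removing set means, and 0 to 4 with a pair left out. Leaving out arrays or pairs gave −0.013 to 0.69 for SWEET13, −0.30 to 0.082 for SWEET15 and −0.12 to 0.011 for SPY, and SWEET13 was at −0.071 on replicates 3 and 4. The causes were not tested. Restricting to sets and the block on sets were chosen after seeing the data, as was combining the replicate block with other settings.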

Other observations

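The NPF and SWEET genes too dim to be tested are given as values only. Of all 9098 probe sets below the filter, 68.4% had a higher mean in GA4, with a median difference of 0.27. Of the 13 such NPF genes 12 (92.3%) had a higher mean in GA4, with group means of 3.32 to 6.62 log2 in GA4 shoots and 2.44 to 6.40 in water shoots and a median difference of 0.31. Of the 7 such SWEET genes 7 (100%) were higher in GA4, with a median difference of 0.47, at 6.07 to 6.94 in GA4 shoots and 5.11 to 6.47 in water shoots. SWEET5 was the 1 of these 7 genes that was higher for 4 of 4 replicate numbers. The same held for 1140 of all 9098 probe sets below the filter, which is the background for it. Its log2 signal was 6.96, 6.71, 6.18 and 6.16 on GA4 replicates 1 to 4. On water replicates 1 to 4 it was 5.48, 5.96, 5.17 and 5.58. No measure of background was used. GA4 replicate 1, which had the fewest signals under 1 (25, against 39 to 158 on the other arrays), was the highest GA4 array for SWEET5.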
